A study of Arabidopsis thaliana with 16 samples.

Results

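Transcript levels in shoot apical meristem (SAM) samples of tcx5/6 plants were compared with those in leaf samples of the same genotype, by RNA sequencing of Arabidopsis thaliana. The 4 libraries compared were chosen by their titles: 2 tcx5/6 SAM and 2 tcx5/6 leaf libraries, out of 16 in the series. The comparison asks which tissue differences remain when TCX5 and TCX6 are lost. Both groups carry the genotype given as tcx5-/-tcx6-/-, and both leaf and SAM were collected from one-month-old plants. The 2 WT SAM and 2 WT leaf libraries, without either mutation and of the same age, showed where the tissue difference in tcx5/6 departed from that in wild type (WT). The labels give growth on MS medium under long days. They do not give the alleles or the number of plants per sample, nor whether replicates came from separate plants. P-values therefore cover the spread between these samples alone, which may be technical. The labels' tissue field reads seedlings for these libraries too, so the tissue was taken from the titles.

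TCX5 and TCX6 are CXC-domain DNA-binding proteins of the plant DREAM complex, which joins E2F and MYB3R transcription factors and the retinoblastoma-related protein RBR1 and represses cell cycle genes in cells that do not divide. E2F factors bind genes of DNA synthesis, and MYB3R factors bind the mitosis-specific activator (MSA) element of genes used in G2 and mitosis. The shoot apical meristem holds dividing stem cells and forms leaves and flowers at its flanks, whereas cells of a mature leaf have mostly left the cell cycle. Genes that copy DNA methylation at replication, such as MET1, CMT3, DDM1 and the VIM genes, are used most where cells divide.

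Values are fractional numbers per gene deposited by the authors, called signal here. They appear to be read counts adjusted between libraries, by a step that is not stated, and levels are not compared between genes since no division by gene length is stated. Total signal was 59065915 and 59330728 in the tcx5/6 leaf libraries and 45351274 and 45516182 in the tcx5/6 SAM libraries, and the WT tissues differed in the same direction (56348602 and 56390426 in leaf, 46636841 and 46893622 in SAM). Between the 2 replicates of a group Pearson's r was 0.9938 to 0.9967 across genes. TCX5 (AT4G29000, chromosome 4, 14293513 to 14297066 in TAIR10.1) read 498 and 464 in tcx5/6 leaf and 489.7 and 552 in tcx5/6 SAM, against 1068 and 1207 in WT leaf and 972 and 989 in WT SAM. TCX6 (AT2G20110, chromosome 2, 8683979 to 8687283) read 1257 and 1007 in tcx5/6 leaf and 1870 and 1849 in tcx5/6 SAM, above the 251 and 332 of WT leaf and the 517 and 391 of WT SAM. TCX5 was thus below and TCX6 above WT in the libraries labelled tcx5/6, and a transcript level does not tell whether a gene is intact. Between the tcx5/6 tissues TCX6 was higher in SAM (log2 difference 0.72, adjusted p = 0.0086), and TCX5 did not pass the test (log2 0.11, adjusted p = 0.31).

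A log2 difference here is SAM minus leaf on the log2(signal + 1) scale from limma-trend, and a gene was called at a Benjamini-Hochberg adjusted p under 0.05 over 24429 genes. In tcx5/6, 19113 genes (78.2%) were called, 10523 higher in SAM (43.1%) and 8590 lower (35.2%), and the median log2 difference of all genes tested was 0.20. At 2-fold or more, 7315 genes (29.9%) were higher and 5493 (22.5%) lower. In WT, 19260 genes (78.8%) were called, 10561 higher (43.2%) and 8699 lower (35.6%). The WT comparison shares no library with the tcx5/6 one. With this many genes called, the count of a gene list is read against these shares. When all libraries were set to an equal total, the median of all genes moved from 0.20 to 0.56 in tcx5/6 and from 0.21 to 0.47 in WT, so small differences between tissues depend on the scale. List medians include genes listed at 0 in a group, whose log2 difference depends on the pseudocount of 1, and no fold is given for such genes.

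Most tissue differences remained. Of the genes called in tcx5/6, 16607 were called in the same direction in WT, which is 86.9% of the tcx5/6 calls and 86.2% of the WT calls (8975 higher in SAM in both genotypes and 7632 lower in both). Across all genes tested the log2 differences of both genotypes had a Pearson r of 0.919, a description over genes, which are not independent replicates. Called in opposite directions were 363 genes (368 with an equal total), 169 of them higher in SAM in tcx5/6. A further 2143 genes were called in tcx5/6 alone and 2290 in WT alone, but a call in a single genotype does not show that the genotypes differ.

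The difference between the genotypes was tested by the interaction, the tissue difference in tcx5/6 minus that in WT. It was called for 7501 genes (30.7%), 3623 with a higher value in tcx5/6 (14.8%) and 3878 with a lower value (15.9%). Interaction counts of the gene lists are read against these shares. With an equal total in all libraries the higher calls made up 63.3% of the calls instead of 48.3%. Leaving out any library of WT leaf, WT SAM or tcx5/6 SAM, or tcx5/6 leaf replicate 1, lowered the count. The count rose without tcx5/6 leaf replicate 2. Among the 16607 genes called in the same direction in both genotypes, the interaction was called for 5380, with a smaller difference in tcx5/6 for 2535 and a larger one for 2845, and was not called for 11227. It was called for 871 of the 2143 genes that passed in tcx5/6 alone. It was also called for all 363 with opposite directions. With a shared estimate of spread and these thresholds, calls in opposite directions bring an interaction call with them, so that count adds no separate support.

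**Figure D1:**
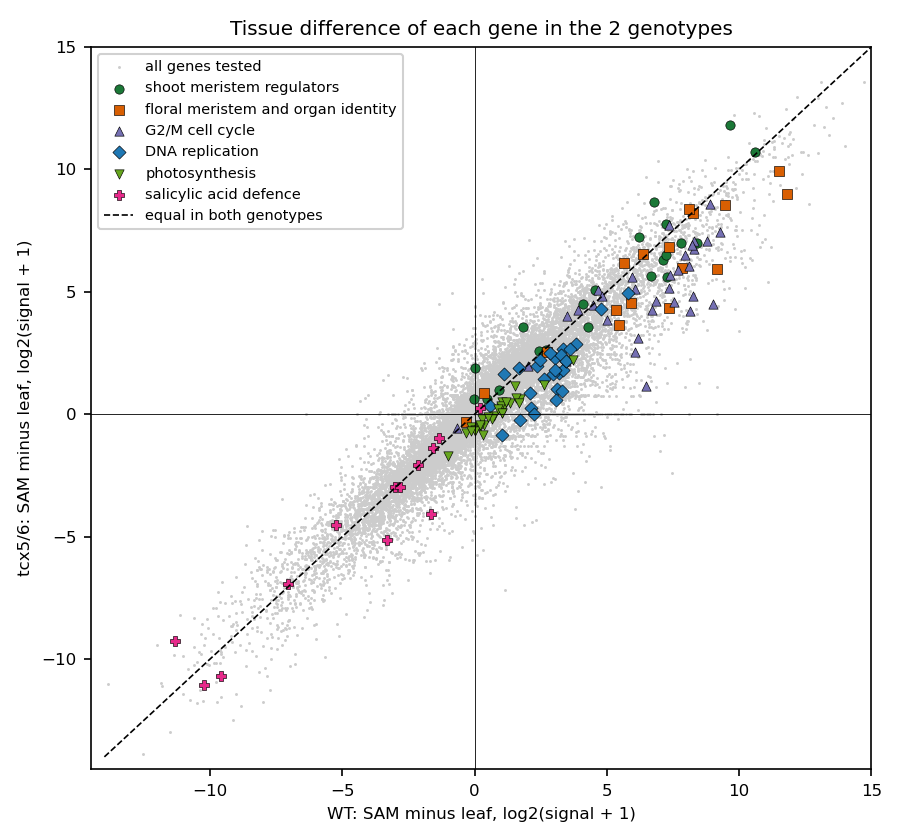
Tissue difference of each gene in WT (horizontal axis) and in tcx5/6 (vertical axis), each as SAM minus leaf on the log2(signal + 1) scale. Each point is 1 of 24429 genes, 6 gene lists are coloured, and the dashed line marks equal differences; G2/M and DNA replication genes lie mostly below it at the upper right, photosynthesis genes lie just below it near the centre, and shoot meristem genes lie along it (Pearson r over all genes 0.919).

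The 12 genes named for the largest rise from leaf to SAM in tcx5/6 had several known roles. PDF1, a gene of the shoot's outermost cell layer, read 16.4 and 0.21 in tcx5/6 leaf and 27267 and 27091 in tcx5/6 SAM. The lipid transfer protein gene LTP6 rose from 12.6 and 15.5 to 36705 and 36075 (log2 11.24, SE 0.32, adjusted p = 6.2e-08). The germin-like gene GER3 rose from 21.3 and 2.6 to 59457 and 59979, the largest values among these genes. ANT, an AP2-domain factor that promotes organ growth, was listed at 0 in both leaf libraries and read 3784 and 3410 in SAM. ATA27, an anther gene of the beta-glucosidase family, was also listed at 0 in leaf and read 3540 and 3327 in SAM, below the 9898 and 8994 of WT SAM. CYP706A3, a cytochrome P450 of flowers, CYP96A15, an alkane hydroxylase of wax synthesis, the glucanase gene CEL2 and CYP77B1 were each listed at 0 in tcx5/6 leaf and stood at 5719 and 5475, 2887 and 2962, 2428 and 2312 and 2282 and 2207 in SAM. MLP28 (log2 12.94), the subtilase gene SBT1.3 (log2 12.28) and the thaumatin-like gene ATLP-1 (log2 12.22) completed the 12, a ranking limited to called genes that have a symbol, do not overlap between tissues and reach a mean of 100 in SAM. That the tissues do not overlap in these genes was part of the rule that named them and held for 87.0% of all genes tested. All 12 were also called higher in SAM in WT.

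The 12 genes named for the largest fall stood high in tcx5/6 leaf and near 0 in tcx5/6 SAM. KTI1, a trypsin inhibitor, read 15871 and 14512 in tcx5/6 leaf and was listed at 0 in SAM, where WT leaf read 6028 and 5774. WRKY75, a transcription factor active in senescence and defence, fell from 6310 and 5829 to 0 and 1.86 (adjusted p = 4e-06). NIT2, a nitrilase, fell from 13588 and 11906 to 3.83 and 0, and the alternative oxidase gene AOX1D from 10218 and 8971 to 1.84 and 5.55. TPS04, which makes a volatile diterpene precursor in wounded leaves, fell from 9594 and 10090 to 1.88 and 1.82 (log2 -11.75) and read 4081 and 3729 in WT leaf. CYP94B3, which inactivates the jasmonate hormone, the amino acid transporter gene UMAMIT20, YLS9, MSRB7 and DXPS1 were listed at 0 in both tcx5/6 SAM libraries and read 3694 and 3341, 4037 and 3658, 3101 and 2976, 3551 and 3232 and 2687 and 2882 in leaf. NATA1, an acetyltransferase of the jasmonate response, and ELI3-2, of the alcohol dehydrogenase type, fell to below 6 (log2 -11.42 and -11.25). The 12 genes were called lower in SAM in WT too.

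Shoot meristem regulators marked the SAM libraries of both genotypes. All 21 genes of the list were higher in tcx5/6 SAM than in tcx5/6 leaf, with a median log2 difference of 5.61 against 0.20 for all genes, and 19 of 21 were higher in WT with a median of 6.22. STM, the homeobox gene that keeps meristem cells undetermined, was listed at 0 in both tcx5/6 leaf libraries and read 1713 and 1602 in tcx5/6 SAM (adjusted p = 2.1e-08). WT SAM read 1587 and 1510, and the interaction of STM did not pass (adjusted p = 0.86). Its relative KNAT1, which patterns internodes, read 0.18 and 6.51 in leaf and 1236 and 1188 in SAM. The boundary genes CUC1, CUC2 and CUC3, which separate organs, were between 163 and 349 in the tcx5/6 SAM libraries and below 5 in the leaf libraries. WUS, which maintains stem cells, was listed at 0 in leaf and read 49.1 and 46.5 in tcx5/6 SAM against 141 and 164 in WT SAM. The interaction of WUS passed (adjusted p = 0.035) but was lost when any 1 of the 8 libraries was left out (adjusted p = 0.053 to 0.079) and with a pseudocount of 0.1 (0.10). CLV3, the peptide gene of stem cells, reached only 1.86 and 3.68 in tcx5/6 SAM and was listed at 0 in the other 6 libraries. The receptor gene CLV1 was higher in tcx5/6 SAM (1852 and 2069 in leaf, 2897 and 3080 in SAM) and did not pass in WT (3111 and 3446 in leaf, 3254 and 3154 in SAM).

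Genes of leaf and organ growth were also chiefly higher in SAM. Of 12 growth-regulating factor genes and their co-activators, 11 were higher in tcx5/6 SAM (median log2 5.21), and GIF3 did not pass (log2 0.12). GRF5, which promotes cell proliferation in young leaves, was listed at 0 in leaf and read 1814 and 1806 in tcx5/6 SAM, and GRF3 rose from 115 and 102 to 2045 and 1898. The co-activator GIF1 rose from 11.1 and 8.97 to 4828 and 4671. Leaf polarity and maturation genes went both ways, with 9 of 18 higher and 6 lower in tcx5/6 SAM and 9 higher and 8 lower in WT SAM. The CIN-type factor TCP13, which promotes leaf cell differentiation, fell from 3137 and 3324 in leaf to 238 and 287 in SAM (log2 -3.62, SE 0.1, adjusted p = 6.5e-08). YAB1, a factor of the lower leaf side, rose from 43.3 and 63 to 2296 and 2281, and AS1, which keeps meristem genes off in leaf primordia, from 1478 and 1366 to 4747 and 4444. PHB and REV, of the upper leaf side, were higher in tcx5/6 SAM by log2 3.88 and 2.11.

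The SAM libraries carried transcripts of flower genes in both genotypes. Of 17 genes of floral meristem and organ identity, 16 were higher in tcx5/6 SAM and AP2 was lower (log2 -0.31, a call lost with an equal total in all libraries), and the counts were 16 and 1 in WT. The list's median log2 difference was 5.97 in tcx5/6 and 7.33 in WT. The interaction was called lower for AP1, AG, SEP1 and SEP2, 4 of 17 genes against 15.9% of all genes, and higher for SEP4 (0.50, a call lost without WT leaf replicate 1, WT SAM replicate 1, WT SAM replicate 2 or tcx5/6 SAM replicate 2). LFY, the regulator that starts flower formation, was listed at 0 in leaf and read 286 and 307 in tcx5/6 SAM and 309.6 and 301 in WT SAM. AP3 and PI, which specify petals and stamens, read 1686 and 1945 and 1938 and 1758 in tcx5/6 SAM, below the 2937 and 2910 and 2905 and 2737 of WT SAM. AG, which specifies stamens and carpels, rose from 59.1 and 47.1 to 682 and 663 in tcx5/6 and from 23.5 and 26.2 to 1248 and 1020 in WT (interaction log2 -1.81, adjusted p = 0.0029). SEP1 and SEP2, cofactors of the organ identity genes, had interactions of -3.24 and -1.88, whereas SEP3 did not pass (0.17, adjusted p = 0.78). SEP1 read 1.09 and 2.17 in WT leaf and 10.36 and 17.63 in tcx5/6 leaf. In SAM it read 1435 and 1481 in WT and 892 and 857 in tcx5/6. AP1 was listed at 0 in WT leaf and read 11.87 and 2.44 in tcx5/6 leaf. Its SAM values were 3637 and 3508 in WT and 3439 and 3360 in tcx5/6. The interactions of SEP1 and AP1 thus depended largely on low leaf values. SEP2 differed chiefly in SAM, at 2566 and 2375 in WT and 841 and 866 in tcx5/6. The summed signal of the list was 15759 to 15763 in tcx5/6 SAM, 22495 to 23183 in WT SAM and 2330 to 2852 in the 4 leaf libraries.

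Anther genes were in the SAM libraries as well. Of 17 pollen and tapetum genes, 16 were higher in tcx5/6 SAM (median log2 6.72), all 17 were higher in WT SAM (median 7.27), and AT5G45880 did not pass in tcx5/6. ACOS5, an acyl-CoA synthetase needed for the pollen wall, was listed at 0 in leaf and read 1563 and 1630 in tcx5/6 SAM and 2321 and 2202 in WT SAM. The tapetum gene A9 read 817 and 761 and 1251 and 1188 in the same groups. GRP17, an oleosin-type protein of the pollen coat, read 1964 and 1976 in tcx5/6 SAM and 17330 and 15329 in WT SAM, the widest gap between the genotypes in the list in signal. The summed signal of the list was 12640 to 12660 in tcx5/6 SAM, 29724 to 32308 in WT SAM and 290.0 to 384 in leaf. Most of the gap between the SAM sums came from GRP17 alone. The list's median log2 difference in SAM, tcx5/6 minus WT, was -0.54. The interaction was called lower for 4 of the 17 genes, against 15.9% of all genes. Fewer were called without WT SAM replicate 1, tcx5/6 SAM replicate 1 or tcx5/6 SAM replicate 2. In bulk tissue, fewer cells of a type and less RNA per cell cannot be told apart, here or in any other result.

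Several genes known from mature pollen were among the 8 named for the lowest interactions. PPME1, a pectin methylesterase of pollen tubes, read 699 and 479 in WT SAM and was listed at 0 in the other 6 libraries. HA6, a plasma membrane proton pump, read 562 and 592 in WT SAM and 0 and 3.73 in tcx5/6 SAM. The multicopper-oxidase-like genes sks12 and sks13 read 306 and 199.6 and 941 and 751 in WT SAM but 0 and 0 and 15.2 and 10.9 in tcx5/6 SAM. The actin-binding profilin PRF4 read 126 and 127 in WT SAM and 3.8 and 1.78 in tcx5/6 SAM, and the thiol reductase gene GILT 317 and 196 and 0 and 3.73. For these 6 genes the WT SAM libraries stood far above all the others, and the tissue differences fitted in tcx5/6 were between log2 -1.50 and 1.28. LEA, of the late embryogenesis abundant family, read 481 and 366 in WT SAM and 1.91 and 0 in tcx5/6 SAM, while its leaf values overlapped (35 and 16 in tcx5/6, 30.9 and 28.5 in WT). The polygalacturonase gene PGAZAT differed in another way, at 146 and 147 in tcx5/6 leaf and at 6 or below in the other 6 libraries. Whether the amount of flower or anther tissue in the SAM samples contributed to the genotype differences in flower and pollen genes was not tested.

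**Figure D2:**
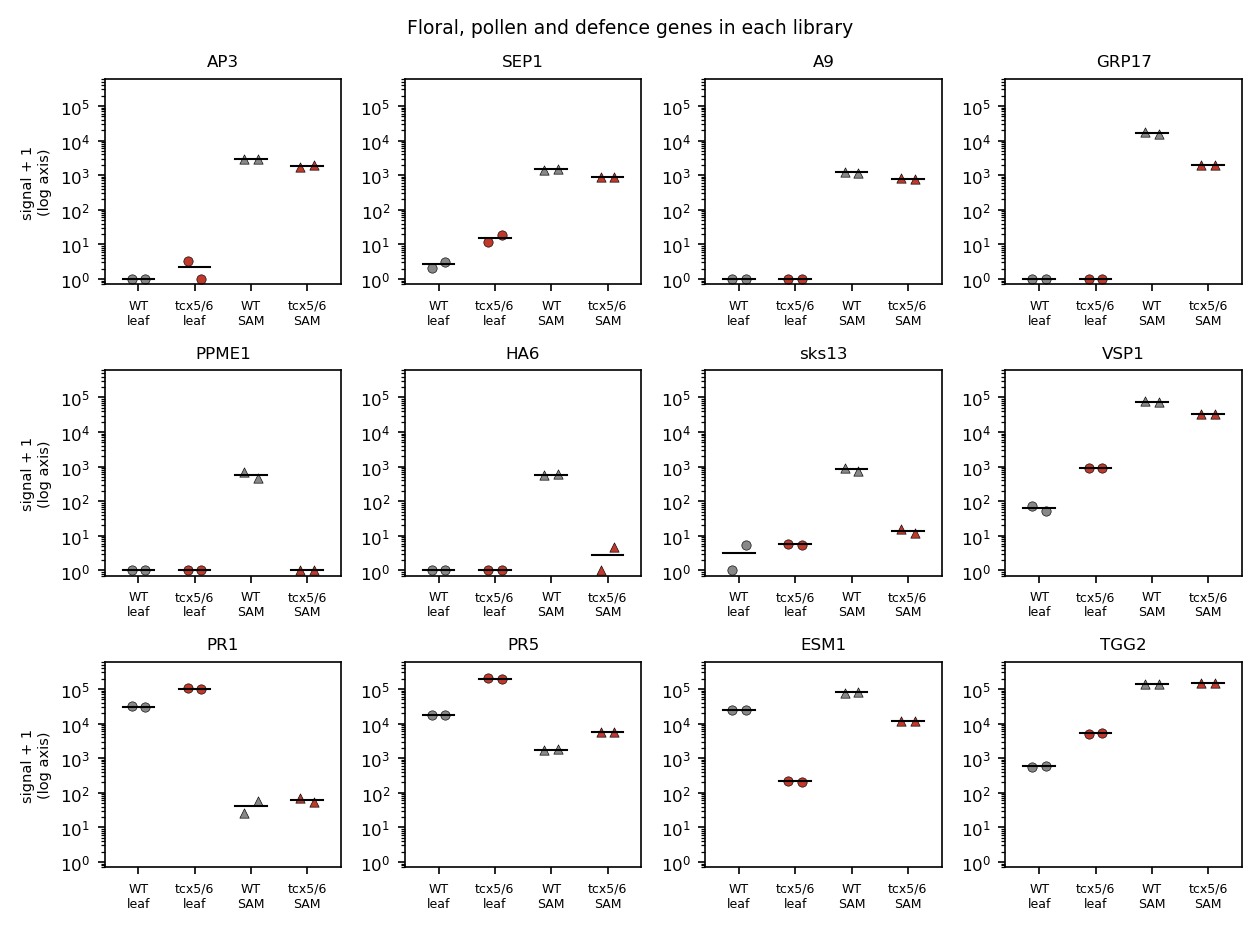
Signal + 1 on a log axis in each of the 8 libraries for 12 floral, pollen, defence and glucosinolate genes, with circles for leaf, triangles for SAM, red for tcx5/6, grey for WT and a bar at each group's mean of 2 libraries. PPME1 is above 0 in WT SAM alone, PR1 and PR5 are highest in tcx5/6 leaf, and ESM1 is lowest in tcx5/6 leaf (221 and 209.6).

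The promoters of the genes tested were searched on both strands for the E2F site (TTTCCCGC or TTTGGCGC) and for the MSA element (CNAACGG). The window ran from 270 bases before to 30 bases after each gene's annotated start in TAIR10.1. The E2F site was found in 289 of 24428 promoters (1.18%), in 11 of 28 DNA replication genes (39.3%), in 1 of 12 genes of methylation maintenance and in 0 of 32 G2/M genes. The MSA element was found in 1387 promoters (5.68%), in 14 of 32 G2/M genes (43.8%), in 7 of 14 histone genes (50.0%) and in 2 of 28 replication genes. Neither was found in the 30 photosynthesis genes. Among genes with a called lower interaction 2.24% held the E2F site and among those with a higher one 1.13%. For the MSA element the shares were 6.11% and 7.26%, in the other order. A match describes letters and is not evidence of binding. The following 5 promoters, read 5′ to 3′ on the gene's strand, belong to called members with the smallest interaction p-values among those holding the motif (2 each for replication and G2/M, and the 1 of methylation maintenance), and capitals mark the E2F site or MSA element. ORC3 is at chr5:5474096-5474395 on the plus strand. MCM4 is at chr2:7130700-7130999, CMT3 at chr1:26253658-26253957, CYCB2;3 at chr1:7137799-7138098 and KN at chr1:2710971-2711270, each on the minus strand.
ORC3: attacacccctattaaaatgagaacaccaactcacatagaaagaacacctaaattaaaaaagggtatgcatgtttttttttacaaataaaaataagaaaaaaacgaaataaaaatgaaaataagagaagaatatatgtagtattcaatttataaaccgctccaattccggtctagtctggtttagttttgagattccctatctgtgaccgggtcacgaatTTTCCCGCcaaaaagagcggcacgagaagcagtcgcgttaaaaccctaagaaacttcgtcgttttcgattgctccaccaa
MCM4: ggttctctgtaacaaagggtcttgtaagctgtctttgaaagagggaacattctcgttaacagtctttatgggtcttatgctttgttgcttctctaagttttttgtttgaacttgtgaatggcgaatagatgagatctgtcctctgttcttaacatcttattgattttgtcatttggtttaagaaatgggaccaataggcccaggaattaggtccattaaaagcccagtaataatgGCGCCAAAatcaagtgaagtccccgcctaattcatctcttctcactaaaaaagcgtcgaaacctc
CMT3: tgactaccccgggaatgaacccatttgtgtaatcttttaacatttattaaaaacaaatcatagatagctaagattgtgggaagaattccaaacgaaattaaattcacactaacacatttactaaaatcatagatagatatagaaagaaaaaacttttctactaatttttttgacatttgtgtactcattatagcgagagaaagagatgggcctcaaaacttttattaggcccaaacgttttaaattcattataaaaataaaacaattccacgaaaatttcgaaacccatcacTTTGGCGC
CYCB2;3: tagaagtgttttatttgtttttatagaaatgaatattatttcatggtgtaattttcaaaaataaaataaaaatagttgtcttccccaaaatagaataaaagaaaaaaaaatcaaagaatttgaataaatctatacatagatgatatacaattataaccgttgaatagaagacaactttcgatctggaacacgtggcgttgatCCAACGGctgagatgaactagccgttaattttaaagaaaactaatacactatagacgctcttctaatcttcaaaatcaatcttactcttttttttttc
KN: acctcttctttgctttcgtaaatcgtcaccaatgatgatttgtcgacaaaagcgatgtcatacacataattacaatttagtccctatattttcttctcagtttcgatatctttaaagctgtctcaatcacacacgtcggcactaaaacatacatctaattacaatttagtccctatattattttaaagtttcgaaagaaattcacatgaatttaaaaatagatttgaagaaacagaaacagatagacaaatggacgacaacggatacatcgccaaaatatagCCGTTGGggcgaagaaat

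DNA replication genes were higher in SAM in tcx5/6, but by less than in WT. Of 28 genes, 25 were higher in tcx5/6 SAM (median log2 1.79), 1 was lower and 2 did not pass, whereas all 28 were higher in WT SAM (median 3.04). The interaction was lower for 18 of 28, against 15.9% of all genes, and its median was -1.22. MCM4, a subunit of the replicative helicase and carrier of an E2F site shown above, read 1047 and 1181 in tcx5/6 leaf and 3881 and 3789 in tcx5/6 SAM, against 252 and 275 in WT leaf and 2716 and 2651 in WT SAM. Its 4 groups did not overlap, and both tcx5/6 groups were above the WT group of the same tissue (interaction log2 -1.56, SE 0.11, adjusted p = 0.00017). TSO2, the small subunit of ribonucleotide reductase, read 6382 and 6460 in tcx5/6 leaf and 9433 and 9639 in tcx5/6 SAM. WT leaf read 771 and 705 and WT SAM 6305 and 6296, so that in signal tcx5/6 leaf was on the level of WT SAM. Such a match of leaf with SAM depends on the scale, since library totals differed between tissues.

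ORC3 and ORC6, of the origin recognition complex that marks where replication starts, had a small and a reversed tissue difference in tcx5/6. ORC3 read 961 and 1096 in tcx5/6 leaf and 1189 and 1229 in tcx5/6 SAM, against 144 and 144 and 634 and 619 in WT (log2 0.24 in tcx5/6 and 2.11 in WT). ORC6 was lower in tcx5/6 SAM than in tcx5/6 leaf, at 760.2 and 705 against 1310 and 1334 (log2 -0.85, adjusted p = 0.00035), and was higher in WT SAM (log2 1.02). ORC2 (log2 -0.22) and the loading factor CDC6A (log2 0.02) did not pass in tcx5/6. The helicase subunit MCM7 rose from 559 and 700.3 to 4618 and 4507 in tcx5/6 and the sliding clamp gene PCNA1 from 670.4 and 732 to 3223 and 3126, with interactions of -0.98 and -1.30. The licensing gene CDT1B was the member with the largest difference in tcx5/6, from 34.6 and 54.1 in leaf to 1286 and 1439 in SAM. The close copies POL2A and TIL2 of the polymerase epsilon gene both rose in SAM (log2 2.40 and 4.32), and they may share reads.

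Genes of G2 and mitosis were far higher in SAM in both genotypes. Of 32 genes, 31 were higher in tcx5/6 SAM and the ubiquitin-conjugating enzyme gene UBC19 was lower (log2 -0.56), as in WT. The median log2 difference was 4.83 in tcx5/6 and 7.10 in WT, and the interaction was lower for 14 of 32, against 15.9% of all genes. WT leaf was low in this list, with a median level of 3.27 on the log2(signal + 1) scale against 6.11 in tcx5/6 leaf. The WT differences, and with them the interactions, of members near 0 in WT leaf therefore depend on the pseudocount. CDKB1;1, a kinase that drives entry into mitosis, read 1276 and 1179 in tcx5/6 leaf and 2755 and 2661 in tcx5/6 SAM, against 6.52 and 15.1 in WT leaf and 971 and 989.6 in WT SAM. In signal tcx5/6 leaf was above WT SAM, which again depends on the scale (interaction log2 -5.34, adjusted p = 0.00033). CYCB1;2, a B-type cyclin, rose from 41.8 and 32.5 to 5103 and 5181 in tcx5/6 (log2 7.08, adjusted p = 1.8e-08). Both genotypes were low in leaf for this gene, at 10.6 and 8.78 in WT, and the interaction was -1.23. CYCB2;3 and the cytokinesis syntaxin gene KN, whose MSA elements are shown above, rose by log2 4.25 and 5.90 in tcx5/6 and by 6.70 and 7.69 in WT.

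For 17 of the 32 genes the interaction did not pass, which does not show that their tissue difference was that of WT, and the median interaction of the list was -1.50. The A-type cyclin gene CYCA1;1 rose from 99.8 and 107 to 2995 and 2904 in tcx5/6 (log2 4.82) and by log2 4.83 in WT. NACK1, a kinesin of cytokinesis, read 12.4 and 11.2 in tcx5/6 leaf and 4902 and 4792 in tcx5/6 SAM, and its interaction did not pass (-0.33, adjusted p = 0.55). CDKB2;2, a mitotic kinase, was the only member with a called higher interaction (0.54, adjusted p = 0.018). That call was lost without WT SAM replicate 1 (adjusted p = 0.066), WT SAM replicate 2 (0.062) or tcx5/6 SAM replicate 1 (0.076). The summed signal of the 32 genes was 8921 to 9163 in tcx5/6 leaf and 5184 to 5308 in WT leaf, and 85010 to 85673 in tcx5/6 SAM and 53394 to 53979 in WT SAM. tcx5/6 was thus above WT in each tissue, and both leaf groups were below both SAM groups.

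**Figure D3:**
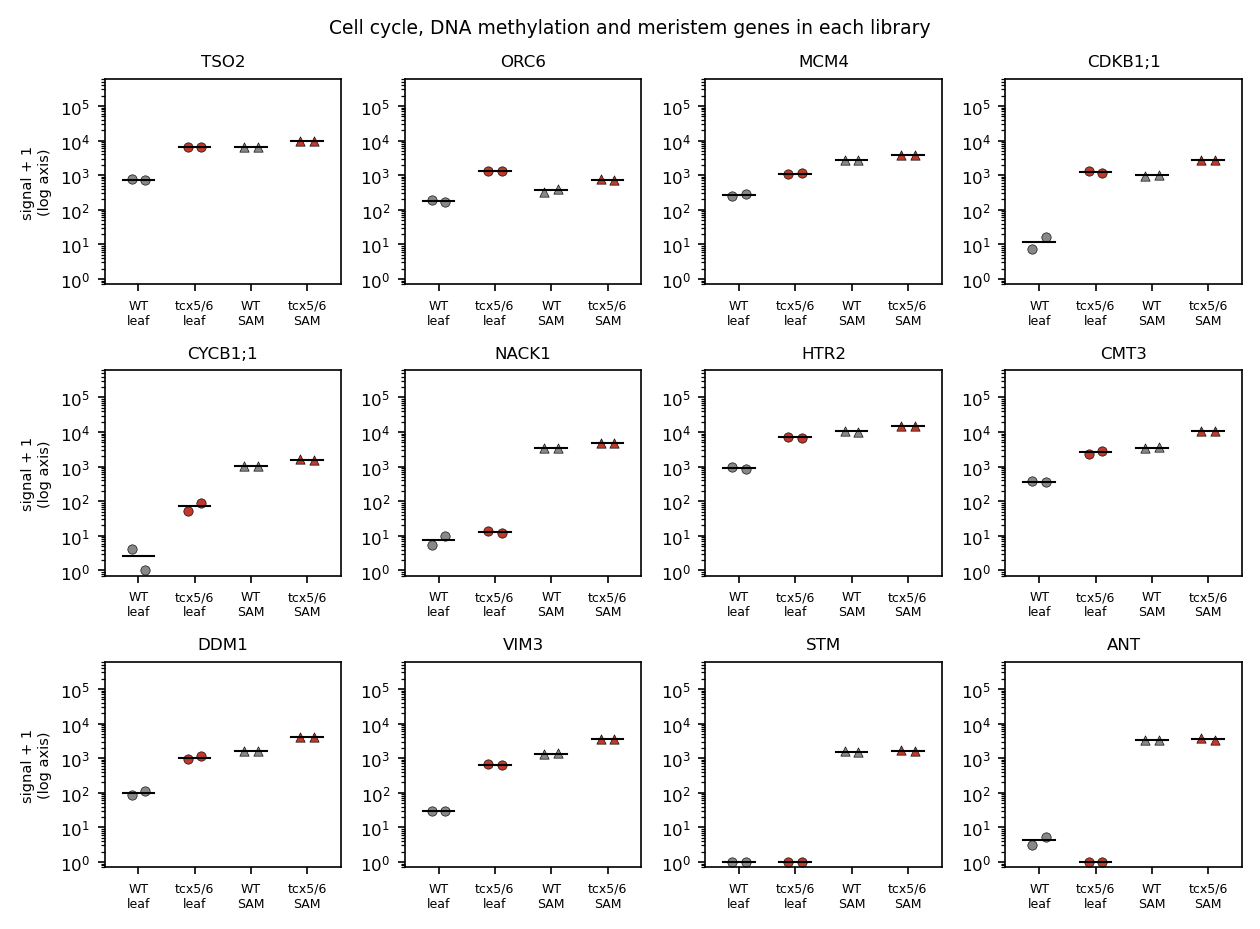
Signal + 1 on a log axis in each of the 8 libraries for 12 cell cycle, DNA methylation and meristem genes, with circles for leaf, triangles for SAM, red for tcx5/6, grey for WT and a bar at each group's mean of 2 libraries. In TSO2, CDKB1;1, HTR2 and VIM3 tcx5/6 leaf lies far above WT leaf, ORC6 is highest in tcx5/6 leaf, and NACK1, STM and ANT are low in both leaf groups.

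G1 cyclins and inhibitors of cyclin-dependent kinases went both ways. Of 20 genes 19 were tested, 12 higher in tcx5/6 SAM and 5 lower, and SMR5 was listed at 0 in all 8 libraries. Without tcx5/6 leaf replicate 1, tcx5/6 SAM replicate 1 or tcx5/6 SAM replicate 2, and with an equal total in all libraries, 3 were lower. CYCD3;2, a D-type cyclin of dividing cells, rose from 766 and 721 to 3418 and 3493. CYCD2;1 and the kinase inhibitor KRP1, a gene linked to endoreduplication in leaves, fell by log2 2.04 and 2.13 and read 621 and 587 and 493 and 499 in SAM. The list named replication-coupled histones also holds variants such as H2A.W genes and the centromeric CENH3. As a list it resembled the replication genes. Of 14 genes 13 were higher in tcx5/6 SAM and the H2A.W gene HTA12 was lower, as in WT, with a median of 1.21 in tcx5/6 and 2.73 in WT. The interaction was lower for 12 of 14. The H2A.W gene HTA6 read 3725 and 3372 in tcx5/6 leaf and 15388 and 15717 in tcx5/6 SAM, against 609 and 542 and 11008 and 10774 in WT (interaction log2 -2.11, adjusted p = 4.3e-05). The H3.1 gene HTR1 read 5332 and 5073 and 15959 and 16204 in tcx5/6, and the centromeric histone gene CENH3 449 and 381 and 2045 and 1997. H3.1 genes encode the same protein, and they may share reads.

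DREAM subunits and E2F factors were themselves mostly higher in SAM. Of 19 genes, 15 were higher in tcx5/6 SAM and E2FC was lower (log2 -0.48; 2 were lower without tcx5/6 leaf replicate 1 and none with an equal total), with a median of 1.49 against 0.97 in WT. The CXC-domain relatives of TCX5 showed no single direction of the interaction. TSO1, which restricts division in flower meristems, rose from 504 and 463 to 3968 and 4081 in tcx5/6 (interaction 0.72, adjusted p = 0.0018). TCX2 rose from 142 and 169 to 3789 and 3639 and TCX3 from 239 and 295 to 2843 and 2717, with interactions of -1.22 and -1.54. MYB3R4, the activator of mitotic genes, read 340.3 and 416 in tcx5/6 leaf and 2.24 and 10.7 in WT leaf, and 4187 and 4262 in tcx5/6 SAM and 1649 and 1489 in WT SAM. Its interaction of -4.50 was the lowest of the list, and 7 of 19 were called lower and 6 higher. ALY1, a LIN9-type DREAM subunit, rose from 1454 and 1472 to 3149 and 3173 in tcx5/6 and did not pass in WT (555 and 494 in leaf, 509 and 405 in SAM).

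Genes that maintain DNA methylation were all higher in tcx5/6 SAM. The 12 genes had a median log2 difference of 2.05 in tcx5/6 and 3.42 in WT, where 10 were higher and SUVH6 and IBM1 did not pass. The interaction was lower for 7 of 12, with a median of -0.98. CMT3, the CHG methyltransferase, read 2364 and 2805 in tcx5/6 leaf and 10878 and 11030 in tcx5/6 SAM, against 383 and 355 in WT leaf and 3370 and 3661 in WT SAM. VIM3, a reader of methylated DNA, read 688 and 616 in tcx5/6 leaf and 3628 and 3573 in tcx5/6 SAM, against 27.7 and 29.5 and 1353 and 1364 in WT. Each tcx5/6 group was above the WT group of the same tissue, by more in leaf than in SAM (interaction log2 -1.16 for CMT3 and -3.06 for VIM3). VIM1, its relative, rose from 494 and 493 to 9768 and 10016 in tcx5/6 (log2 4.32, SE 0.054, adjusted p = 2.2e-09). The chromatin remodeller gene DDM1 rose from 913 and 1116 to 4154 and 3993, and MET1, the CG methyltransferase, from 944 and 1350 to 10223 and 10176.

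Some methylation genes went against this order. CMT2, the methyltransferase of heterochromatic CHH sites, read 199 and 228 in tcx5/6 leaf, below the 595 and 572 of WT leaf, and 3505 and 3350 in tcx5/6 SAM. Its tissue difference was larger in tcx5/6 (interaction log2 1.63, adjusted p = 0.00017). IBM1, a histone demethylase that keeps gene bodies free of CHG methylation, also had a higher interaction (0.92, adjusted p = 0.018). VIM2 and VIM4 were higher in tcx5/6 SAM by log2 0.97 and 0.68, and as close copies they may share reads. Of 22 genes of RNA-directed DNA methylation 19 were higher in tcx5/6 SAM and none lower, with a median of 2.85 against 2.13 in WT. AGO4, which loads the small RNAs of this pathway, rose from 329 and 399 to 8279 and 8459 in tcx5/6 and from 490.2 and 532 to 7134 and 7138 in WT (interaction 0.72, adjusted p = 0.0068). KTF1 (log2 1.87) and NRPE1, the largest subunit of RNA polymerase V (log2 4.50), rose too, while SHH1 did not pass (log2 0.02). Of 9 genes of active demethylation 8 were higher in tcx5/6 SAM, among them the glycosylase gene DML2, from 235 and 346 to 2473 and 2368, and the acetyltransferase gene IDM1, from 173 and 203 to 1964 and 2055. IDM2 was listed at 0 in both leaf groups and read 240.1 and 201 in tcx5/6 SAM.

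Meiosis genes were mostly higher in SAM in both genotypes. Of 15 genes 14 were higher in tcx5/6 SAM (median log2 1.91), and 13 were higher and 1 lower in WT (median 2.19). DMC1, the recombinase of meiosis, read 2186 and 2105 in tcx5/6 leaf and 9117 and 9412 in tcx5/6 SAM, against 72.8 and 104 in WT leaf and 1080 and 1123 in WT SAM. All tcx5/6 libraries of this gene, leaf included, were above all WT libraries. ASY1, of the chromosome axis, was higher in tcx5/6 SAM (1438 and 1510 in leaf, 2493 and 2183 in SAM) and lower in WT SAM (336 and 323 in leaf, 154 and 167 in SAM). The helicase gene MER3 rose from 7.67 and 11.1 to 697 and 725 and the cyclin gene SDS from 32.9 and 44.3 to 682 and 644. Of 14 genes of the DNA damage response 13 were higher in tcx5/6 SAM (median 2.55, as in WT) and NAC085 did not pass. The poly(ADP-ribose) polymerase gene PARP2 rose from 524 and 530.0 to 2817 and 2639 in tcx5/6 and from 65 and 64.5 to 563 and 578 in WT. The checkpoint kinase genes ATM and ATR rose from 381 and 568 to 4502 and 4775 and from 246 and 319 to 1954 and 1784. The interaction of ATR (adjusted p = 0.038) was lost in 6 of the 8 sets with 1 library left out, and kept without WT leaf replicate 1 or tcx5/6 leaf replicate 2. RAD17, a checkpoint clamp loader gene, rose from 327 and 329.6 to 904 and 880.3 in tcx5/6 and did not pass in WT (interaction 1.61, adjusted p = 0.0024).

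Photosynthesis genes gained less in SAM, or fell by more, in tcx5/6 than in WT. In WT, 23 of 30 nuclear photosynthesis genes were higher in SAM and 4 lower (median log2 0.82). In tcx5/6, 13 were higher and 14 lower (median -0.02), but 19 were higher and 10 lower when libraries were set to an equal total, so the direction of the list in tcx5/6 depends on the scale. The interaction was lower for all 30, also with an equal total and with any 1 library left out (median -0.73, range -1.54 to -0.34). RBCS1A, a small subunit of the carbon-fixing enzyme Rubisco, read 166498 and 163887 in tcx5/6 leaf and 247922 and 259273 in tcx5/6 SAM, against 131510 and 127560 in WT leaf and 427344 and 425807 in WT SAM. Its leaf values were above WT and its SAM values below WT (interaction log2 -1.10, adjusted p = 3.7e-05). GAPB, an enzyme of the Calvin cycle, was lower in tcx5/6 SAM (42279 and 40115 in leaf, 23080 and 23222 in SAM) and higher in WT SAM (39886 and 40308 in leaf, 50033 and 50802 in SAM).

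Light-harvesting and photosystem genes were among those with a lower interaction. CAB1, a chlorophyll-binding protein of photosystem II, read 202229 and 188736 in tcx5/6 leaf and 303481 and 306824 in tcx5/6 SAM, against 120779 and 118420 and 348447 and 361645 in WT. PSBR, a photosystem II protein, was lower in SAM in both genotypes, from 236691 and 217950 to 69955 and 70260 in tcx5/6 and from 226638 and 221581 to 109009 and 114159 in WT. Opposite calls in the genotypes were made for LHCA4, PSAD1, PSBO1, PSBP1, PETC, FBP and GAPB, each lower in tcx5/6 SAM and higher in WT SAM, with interactions of -1.16 to -0.46. With an equal total in all libraries the opposite calls held for LHCA4, PSBO1 and GAPB, while PSAD1, PSBP1 and FBP were higher in tcx5/6 SAM too (log2 0.20, 0.20 and 0.26) and PETC did not pass in tcx5/6. RBCS2B and RBCS3B were the members with the smallest p-values that rose in tcx5/6 SAM (log2 2.20 and 1.19) and rose by more in WT (3.74 and 2.63). The CAB and RBCS copies may share reads. The summed signal of the list made up 3.59% to 3.63% of all signal in tcx5/6 SAM and 5.36% to 5.43% in WT SAM, and 2.84% to 2.96% in tcx5/6 leaf and 2.69% to 2.73% in WT leaf. As signal the sum was 1626100 and 1654360 in tcx5/6 SAM, below the 1758630 and 1679970 of tcx5/6 leaf, so the direction in tcx5/6 turned with the library totals. In WT both measures were higher in SAM (signal of 2501540 and 2548010 against 1540160 and 1516310).

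Genes of photorespiration and starch were split between the tissues. Of 15 genes 2 were higher and 9 lower in tcx5/6 SAM (6 and 5 with an equal total), and 4 were higher and 7 lower in WT. The 2 higher became 4 without tcx5/6 leaf replicate 2, and 1 without tcx5/6 leaf replicate 1, tcx5/6 SAM replicate 1 or tcx5/6 SAM replicate 2. The interaction was lower for 9 of 15 and higher for the starch degradation gene SEX1 (0.87), a call lost without WT SAM replicate 1 or tcx5/6 SAM replicate 2. AGT1, an aminotransferase of photorespiration, fell from 44398 and 41289 to 10793 and 10547 in tcx5/6 and from 44563 and 43328 to 29287 and 29021 in WT (interaction log2 -1.41, SE 0.057, adjusted p = 2.9e-05). The glycolate oxidase gene GOX1 fell from 25068 and 26615 to 11941 and 11453, and SUC2, which loads sucrose into the phloem, from 8630 and 9236 to 2173 and 2230. GLDT, of the glycine decarboxylase complex, rose from 11401 and 11223 to 25292 and 24883, against 43986 and 43385 in WT SAM.

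**Figure D4:**
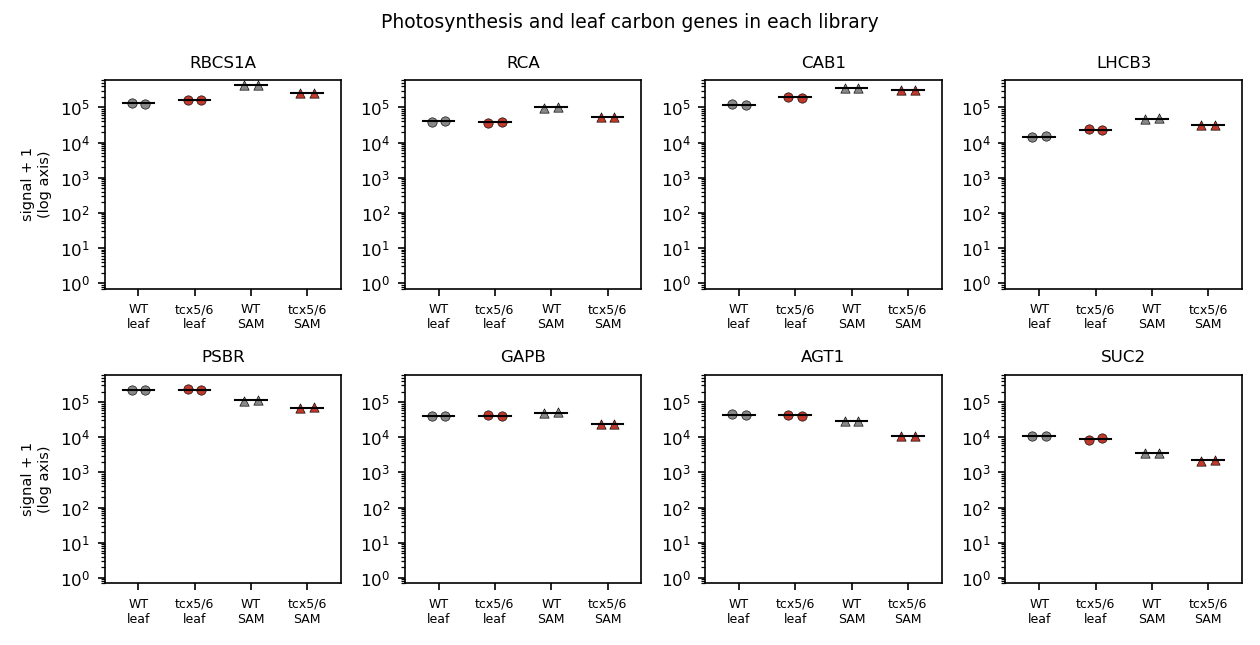
Signal + 1 on a log axis in each of the 8 libraries for 8 genes of photosynthesis and leaf carbon metabolism, with circles for leaf, triangles for SAM, red for tcx5/6, grey for WT and a bar at each group's mean of 2 libraries. In all 8 genes the tcx5/6 SAM libraries lie below the WT SAM libraries, as in GAPB at 23080 and 23222 against 50033 and 50802.

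Senescence genes were mostly lower in SAM in both genotypes. Of 14 genes, 13 were lower in tcx5/6 SAM and none higher (median log2 -4.34), and 13 were lower and SAG29 higher in WT (median -4.61). The interaction was called higher for 6 of 14 and lower for SAG29, a call lost without any 1 of the 4 SAM libraries. NYE1, which starts chlorophyll breakdown, fell from 6875 and 6739 to 466 and 432 in tcx5/6 and from 7210 and 7032 to 479 and 457 in WT, with an interaction of 0.00 (adjusted p = 0.97). SAG12, a late senescence protease, read 210.3 and 178 in tcx5/6 leaf and 191 and 223 in WT leaf and was listed at 0 in all SAM libraries. WRKY53, a senescence factor, fell from 30655 and 29859 to 544 and 465. SAG13, a senescence and stress gene, fell from 57322 and 55933 to 279 and 290.2 in tcx5/6, against 23664 and 22910 and 55.9 and 42 in WT (interaction 1.25, adjusted p = 0.0023).

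The summed signal of salicylic acid defence genes was highest in tcx5/6 leaf. Of 13 salicylic acid genes 12 were lower in SAM and NIMIN1 did not pass, in tcx5/6 and in WT (median log2 -4.10 and -3.02). The interaction was called higher for 3 genes and lower for 2, PR5 and PBS3, with a median of 0.05, and the 3 became 5 with an equal total and 1 without tcx5/6 SAM replicate 1. The summed signal of the list was 677051 to 700868 in tcx5/6 leaf, 156574 to 157151 in WT leaf, 21523 to 21788 in tcx5/6 SAM and 11260 to 11320 in WT SAM. PR1, PR2 and PR5 made up most of the tcx5/6 leaf sum. The list's median log2 difference in leaf, tcx5/6 minus WT, was 1.05. PR5, a pathogenesis-related protein, read 203568 and 192612 in tcx5/6 leaf and 5536 and 5804 in tcx5/6 SAM, against 17213 and 17492 in WT leaf and 1747 and 1785 in WT SAM (interaction log2 -1.83, adjusted p = 1.2e-05). PR1, the marker of systemic resistance, read 105772 and 97118 in tcx5/6 leaf and 67.2 and 52.6 in SAM. PR2, a glucanase, read 323354 and 317855 and 2804 and 2496, and its interaction did not pass (0.13), with both tcx5/6 groups above WT (66377 and 67196 in leaf, 485 and 520.2 in SAM). WRKY70, a regulator of this response, fell by log2 2.09 in tcx5/6 and 2.14 in WT.

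Of 12 jasmonate and ethylene genes 10 were lower and 2 higher in tcx5/6 SAM (median log2 -4.42), and the interaction was lower for 7. JAZ1, a repressor of the jasmonate response, fell from 17488 and 19002 to 524 and 503, and its interaction did not pass (0.03). AOS, an enzyme of jasmonate synthesis, fell from 52322 and 47605 to 609 and 487 and the chitin-binding protein gene HEL from 178498 and 163673 to 1595 and 1662. The vegetative storage protein genes VSP1 and VSP2 were the 2 that were higher. VSP1 read 931 and 941 in tcx5/6 leaf and 33408 and 33482 in tcx5/6 SAM, against 74.2 and 50.7 in WT leaf and 77165 and 72485 in WT SAM. Its tcx5/6 libraries were above WT in leaf and below WT in SAM (interaction -5.07, adjusted p = 3.5e-05). The defensin gene PDF1.2 fell from 35214 and 31666 to 1700 and 1800 in tcx5/6 and from 16013 and 14645 to 2315 and 3037 in WT.

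Aliphatic glucosinolates are defence compounds made in leaves and split by myrosinases. Of 14 genes 4 were higher and 10 lower in SAM in each genotype, with a median of -3.39 in tcx5/6. MAM1, of side-chain elongation, fell from 9740 and 9887 to 139.8 and 130.3, and CYP79F1, which makes the first intermediate of the core structure, from 5998 and 6780 to 18.7 and 31.3. The myrosinase genes TGG1 and TGG2 went the other way, from 10831 and 11323 to 173765 and 177261 and from 5015 and 5464 to 150268 and 152466. ESM1, which favours isothiocyanates over nitriles as breakdown products, had the highest interaction of all named genes (4.09, SE 0.051, adjusted p = 3.4e-07). It read 221 and 209.6 in tcx5/6 leaf and 11583 and 11826 in tcx5/6 SAM, against 24834 and 24829 and 78275 and 79492 in WT, so that tcx5/6 was below WT in both tissues and by more in leaf. Anthocyanin synthesis genes had a median log2 difference of -2.42 in tcx5/6 and -5.08 in WT. Of 10 genes 9 were tested, and 6 had a called higher interaction and none a lower one. PAP2, a MYB activator of the pathway, read 1135 and 954 in tcx5/6 leaf, 3454 and 3749 in WT leaf, 92.4 and 102 in tcx5/6 SAM and 51.7 and 65.6 in WT SAM. CHS, the first enzyme of the pathway, rose from 418 and 283 to 10233 and 10408 in tcx5/6 and from 1806 and 1559 to 12262 and 11784 in WT (interactions 2.52 for PAP2 and 2.06 for CHS).

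The other genes with the highest interactions had several patterns. The transporter gene DTX1 read 608 and 643 in tcx5/6 leaf and 46 and 67.9 in tcx5/6 SAM, against 504 and 466 and 1.77 and 2.42 in WT. The glutamate receptor gene ATGLR1.2 read 2262 and 2459 and 672 and 665 in tcx5/6, against 613 and 576 and 16.1 and 16 in WT, with both tcx5/6 tissues above WT. GSTU9, a glutathione transferase, read 18.9 and 15.4 in tcx5/6 SAM and was listed at 0 in WT SAM. In these 3 genes the fall from leaf to SAM was smaller in tcx5/6. NUDT24, a nudix hydrolase, read 15.8 and 33 in tcx5/6 leaf, 429 and 350.3 in WT leaf and 0 in all SAM libraries. OFP5, of the ovate family, read 63 and 53.7 in tcx5/6 leaf and 191 and 183 in WT leaf. In SAM it read 24.6 and 22.8 in tcx5/6, above the 11.9 and 4.48 of WT. HCS2, a holocarboxylase synthetase, read 0.0606 and 2.18 in tcx5/6 leaf and 67.6 and 108 in WT leaf. HCS2 was below WT in SAM too, at 25.4 and 33 in tcx5/6 against 114 and 109. KCS19, of fatty acid elongation, read 0.0606 and 2.18 in tcx5/6 leaf and 2372 and 2427 in tcx5/6 SAM, against 13.9 and 19.5 and 2218 and 2049 in WT. In these 4 genes tcx5/6 leaf was below WT leaf. The interaction call of HCS2 was lost without WT SAM replicate 1, WT SAM replicate 2 or tcx5/6 SAM replicate 2. With a pseudocount of 0.1 the calls of HCS2 (adjusted p = 0.0571) and KCS19 (0.0597) were both lost.

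Markers of cell types showed what else the samples held. Of 10 epidermis genes 9 were higher in tcx5/6 SAM, among them the wax gene CER1, from 279 and 240.0 to 26572 and 26319, and LTP1, from 4784 and 4420 to 144904 and 142112. ML1, a regulator of epidermal fate, rose from 1705 and 1730 to 7439 and 7454, close to the 6860 and 6834 of WT SAM (interaction -0.12, adjusted p = 0.097). Genes of young stomata rose in SAM: SPCH, which starts the lineage, from 0.0606 and 2.18 to 1086 and 1140, TMM from 30.3 and 37.7 to 2418 and 2586, and EPF2 from 5.08 and 6.65 to 756 and 679. Of the 10 genes of stomata and guard cells 7 were higher in tcx5/6 SAM, 1 was lower and 2 did not pass. The 1 lower was the guard cell channel gene KAT1, which fell from 1400 and 1862 to 288 and 266. In this gene tcx5/6 leaf was below the 4445 and 4820 of WT leaf. Of 13 vascular genes 10 were higher and 3 lower. The xylem protease gene XCP2 rose from 78.7 and 60.5 to 2878 and 2874, and the phloem gene PP2-A1 fell from 14709 and 13639 to 545 and 504, in the direction seen in WT.

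Markers of root were mostly low and those of seed were near 0. Of 11 root genes 7 were tested. SCR, which is known from the root endodermis and also acts in shoots, read 1163 and 1136 in tcx5/6 leaf and 1562 and 1414 in tcx5/6 SAM, and the phosphate exporter gene PHO1 read 71.7 and 118 and 88.4 and 126. The nitrate transporter gene NRT2.1 was at 15.2 to 49.2 in the tcx5/6 libraries, and PLT1, RHD6 and SMB were listed at 0 in all 8 libraries. COBL9 and CASP1 were listed at 0 in leaf and reached 12.3 and 10.9 and 12.1 and 23 in tcx5/6 SAM, and the iron transporter gene IRT1 42.4 and 45.7. Of 8 seed storage genes 5 were tested and none was called in tcx5/6 (SESA1 had the smallest p, at log2 -1.29 and adjusted p = 0.15, and passed without tcx5/6 leaf replicate 1, at 0.0086), 1 was called higher without either tcx5/6 SAM replicate, and their summed signal was below 25 in every library. The part of cell type composition in the tissue and genotype differences was not tested.

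**Figure D5:**
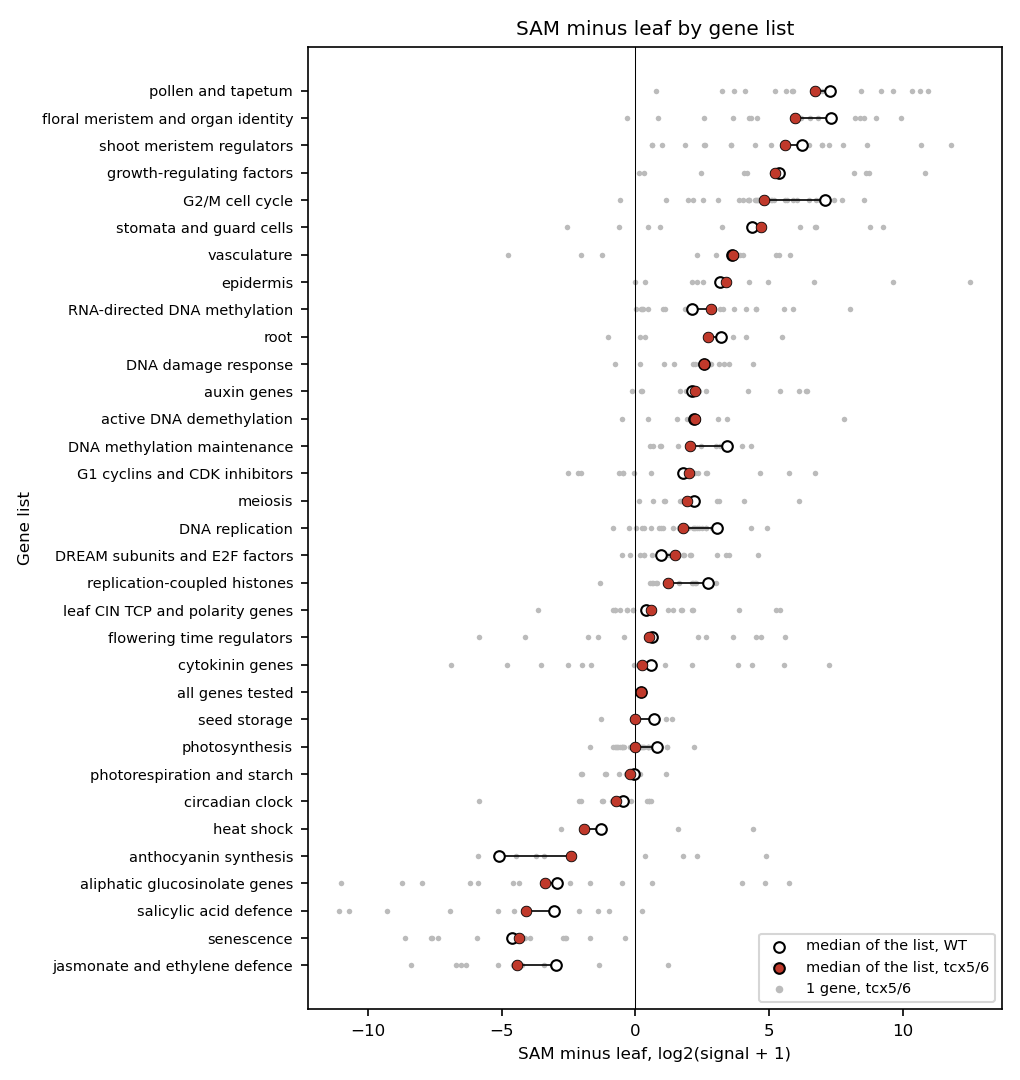
SAM minus leaf on the log2(signal + 1) scale for 32 gene lists and all genes tested, with 1 grey dot per gene in tcx5/6, a red dot at the list's median in tcx5/6 and an open dot at its median in WT, ordered by the tcx5/6 median. The red dot lies left of the open dot for DNA replication (1.79 and 3.04), G2/M cell cycle (4.83 and 7.10), replication-coupled histones (1.21 and 2.73) and photosynthesis (-0.02 and 0.82), while the jasmonate and ethylene defence list is lowest in tcx5/6 (-4.42) and the anthocyanin list is lowest in WT (-5.08).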

How the data were processed

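RNA sequencing libraries of leaf and SAM from WT and tcx5/6 plants, 2 per group, were taken from 1 deposited table of 32548 genes, all matched to RefSeq TAIR10.1. The 1 table of seedlings was not used. The unit of the table used is signal: fractional numbers per gene, never below 0, deposited by the authors. By their values they appear to be read counts adjusted between libraries, but the adjustment is not stated and column totals differ, so comparability between tissues rests on it. Both WT leaf libraries had 22128 genes above 0 and both tcx5/6 leaf libraries 22023. In SAM the replicates differed (23537 and 23580 in WT, 22848 and 22849 in tcx5/6). Some pairs of low leaf values recurred, such as 0.0606 and 2.18 in tcx5/6 leaf for HCS2 and KCS19. Leaf values near 0 may thus come from the adjustment and not from reads, which was not tested. HISAT2, edgeR and TAIR10 are named in the submitters' processing notes. The sources used here give neither their versions nor the counting tool or strand setting, so antisense genes and close copies are not separated with certainty. The depth sequenced is unknown, so no counting intervals were computed. Values below 1e-06 were read as 0.

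The 24429 genes that reached 1 in 2 or more of the 8 libraries were fitted on log2(value + 1) with limma 3.58.1 (limma-trend, R 4.3.3), with 1 coefficient per group and all 8 libraries sharing the estimate of spread. Two-sided p-values were adjusted (Benjamini-Hochberg) across the genes tested, and calls made under 0.05. Count tests, planned for raw counts only, were left out. The scripts were tested on simulated data. Python 3.11.15, pandas 2.3.3 and matplotlib 3.10.9 served for lists, promoters and figures.

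The members and the 33 gene lists (493 genes) were chosen with earlier results of these data known. Lists are described by counts and medians without a test. Named genes are TCX5 and TCX6, the 12 largest rises and 12 largest falls, and the 8 highest and 8 lowest interactions among called genes that have a symbol, whose groups do not overlap, with a mean of at least 100 in the highest group. To these come, from each list, up to 3 called genes ranked by p-value in tcx5/6. Further list genes were named in describing a group, after their values were seen. Alternatives were other scalings, filters, a pseudocount of 0.1, a fit on the compared libraries alone, a minimum log2 difference of 1, a block for replicate number and each library left out in turn. The scaling to an equal total was chosen after seeing the data.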

Additional observations from a re-analysis of the deposited data

Results flagged for a closer look

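Of 133 named genes, 82 had a tissue difference in tcx5/6 that differed from the one in WT by the interaction test (limma, adjusted p under 0.05). Each value in parentheses below is that interaction, the log2 difference SAM minus leaf in tcx5/6 minus the same in WT. Where a group was listed at 0 it depends on the pseudocount and is no measure of a fold.

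Among genes of DNA synthesis, histones, division and the DREAM complex, lower interactions were found for MCM4 (-1.56), PCNA1 (-1.30), MCM7 (-0.98), CYCB1;2 (-1.23), CYCD2;1 (-0.61), KRP1 (-0.62), HTR1 (-1.69), HTA6 (-2.11), HTB1 (-0.43), TCX2 (-1.22) and TCX3 (-1.54). Higher ones were found for CDKB2;2 (0.54), CYCD3;2 (0.41) and TSO1 (0.72). In DNA methylation and demethylation genes the interaction was lower for VIM1 (-1.83) and VIM3 (-3.06) and higher for CMT2 (1.63), AGO4 (0.72), KTF1 (0.23) and IDM1 (1.23). In meiosis and DNA damage genes the interaction was lower for MER3 (-1.60), DMC1 (-1.53) and PARP2 (-0.75) and higher for SDS (1.36), ATM (1.19) and ATR (0.74).

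In photosynthesis and leaf carbon genes the interaction was lower for RBCS2B (-1.54), RBCS3B (-1.44), PSBR (-0.69), AGT1 (-1.41), SUC2 (-0.41) and GLDT (-0.59). In meristem, flower and organ growth genes it was higher for ANT (2.15), AGL24 (1.96), YAB1 (1.58) and GRF3 (1.32) and lower for WUS (-1.65) and SOC1 (-0.23). In anther and pollen genes it was lower for ATA27 (-1.46), GRP17 (-3.05), PPME1 (-9.18), PRF4 (-8.49), HA6 (-8.05), sks13 (-7.22) and sks12 (-6.73).

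In defence, stress and secondary metabolism it was lower for KTI1 (-1.36), NIT2 (-3.35), UMAMIT20 (-3.07), CYP94B3 (-2.03), TPS04 (-3.75), MSRB7 (-1.47), DXPS1 (-2.40), ELI3-2 (-3.51), PR5 (-1.83), MAM1 (-0.34) and TGG1 (-0.56). It was higher for ATLP-1 (2.39), SAG13 (1.25), ESM1 (4.09), DTX1 (3.84), GSTU9 (3.29), HSP70 (1.46), HSP90.1 (1.26), CHS (2.06) and PAP2 (2.52). In hormone, clock and cell type genes it was lower for ARR4 (-0.997), ELF4 (-0.33), PP2-A1 (-0.98) and COBL9 (-2.53) and higher for LOG7 (0.64), AHK4 (0.90), TAA1 (0.95), CER1 (0.65) and KAT1 (1.00). Of the remaining genes, NUDT24 (4.02), HCS2 (3.65), KCS19 (3.42), ATGLR1.2 (3.31) and OFP5 (3.22) had higher interactions and PGAZAT (-8.36), LEA (-7.64) and GILT (-6.85) had lower ones.

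Several of these calls did not hold when 1 library was left out, among them those of WUS, ATLP-1, NIT2, DXPS1, AHK4, ATR, KTF1, LOG7 and ELF4, each lost in at least 5 of the 8 sets. With an equal total in all libraries the limma interaction calls of SOC1 (adjusted p = 0.12), HTB1 (0.058), ELF4 (0.091) and MAM1 (0.0504) were lost, so these depend on the scale. The interaction count as a whole fell without either WT SAM replicate, to 4738 and 4983 of the 7501 genes called with all libraries.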

How the results depend on the processing

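The count of genes called in tcx5/6 (19113) was 12808 with a minimum absolute log2 difference of 1, 17957 with a filter at 20, and 18739 to 19461 under other scalings, filters, pseudocount or fit. With 1 library left out it was 17976 to 18708, and in WT 17642 to 17993. A minimum absolute log2 difference of 1 left 12715 genes in WT and 2390 for the interaction. The interaction count (7501) was 4738 to 8750 with 1 library left out, lowest without WT SAM replicate 1 and highest without tcx5/6 leaf replicate 2, and the cause was not tested. Rescaling by the median of ratios left the median interaction of all genes at -0.05 and an equal total moved it to 0.09. Replicate numbers are not stated to pair samples, and the deviations of same-numbered samples correlated at -0.0806 to 0.0224. With the replicate block 19063 genes were called in tcx5/6, 19154 in WT and 7065 for the interaction, and of the named genes WUS lost its interaction call (adjusted p = 0.059). Of 1296 values of named genes in tcx5/6 under the alternatives, 1294 kept their direction and side of the threshold, and TCX5 (equal total) and SESA1 (without tcx5/6 leaf replicate 1) came to pass. Of 1146 interaction values 1056 did, 90 lost the call and 0 reversed. Of 1782 list counts, 215 moved by more than 1.5 times. Each group has 2 libraries, and a lone library was assumed to vary like the other groups when its partner was left out. The depth sequenced is unknown, so no limit of detection can be given.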

Other observations

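Regulators of flowering time were split between the tissues of tcx5/6. Of 14 genes 7 were higher in SAM and 5 lower, and 6 and 5 in WT. FUL, which acts at the apex in the change to flowering, rose from 469.6 and 444 in tcx5/6 leaf to 3015 and 2725 in tcx5/6 SAM. AGL24, an activator of flowering, rose from 71.7 and 88.7 to 2099 and 2100, and by less in WT, from 222 and 226 to 1488 and 1525. SPL9, which promotes the adult phase, rose from 66.6 and 110.4 to 4115 and 4193. The mobile signal gene FT, made in leaves, fell from 83.2 and 108 to 5.69 and 3.6, and SVP, a repressor, from 7905 and 7049 to 2159 and 2202. SOC1, which integrates the flowering pathways, also fell, from 7022 and 6782 to 2662 and 2608, as in WT. The direction of each of these 6 genes was that of WT.

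Auxin genes were higher in SAM for 12 of 14, with a median log2 difference of 2.23 in tcx5/6, and none was lower (ARF7 was lower in WT). The importer gene AUX1 rose from 634 and 769.5 to 2877 and 3037 and the synthesis gene TAA1 from 277 and 255 to 1119 and 1045. Without tcx5/6 leaf replicate 1 a single auxin gene was lower. Cytokinin genes were split, 7 higher and 6 lower of 14. The receptor gene AHK4 rose from 87.8 and 134 to 1570 and 1533 and ARR7, a response gene active in the meristem, from 315 and 266 to 1294 and 1209. The synthesis gene IPT3 fell from 916 and 850.2 to 11.4 and 3.49, LOG7 from 1375 and 1320 to 124 and 107 and the response gene ARR4 from 11176 and 10488 to 2744 and 2708. The fall of ARR4 was larger in tcx5/6 than in WT (interaction -0.997, adjusted p = 0.00015).

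Of 13 clock genes 4 were higher in tcx5/6 SAM (0 at a minimum absolute log2 difference of 1) and 6 lower. ELF4 and LUX, of the evening complex, fell from 14368 and 13560 to 3303 and 3249 and from 6261 and 5816 to 3612 and 3644, and TOC1 from 11012 and 11362 to 7561 and 7556. The time of day at which each sample was taken is not given in the labels. Of 8 heat shock genes 6 were tested, 2 higher in tcx5/6 SAM and 4 lower, and 2 and 3 in WT. HSP70 fell from 4309 and 4549 to 649 and 654 and HSP90.1 from 3144 and 3957 to 849 and 904, by less than in WT (interactions 1.46 and 1.26), while HSP101 rose from 246 and 306 to 856 and 821.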
